A study of Mus musculus with 4 samples.

Results

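Zbtb16 (gene ID 235320) encodes PLZF, a transcription factor with a BTB domain and zinc fingers. All chromatin intervals listed at this gene in mouse uterus came from adult tissue. The lists held 17 intervals here, 12 of RNA polymerase II and 5 of FOXA2, out of 35977 intervals in 4 lists. They were chosen by position, as every interval that overlapped chromosome 9, 48440000 to 48660000 by at least 1 bp. That window was itself selected on its adult POL2 cover in these same lists, so the stage difference in POL2 is described here without a test and supports nothing. The label also names FOXA2, and the FOXA2 values are for that reason given as a description too.

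Chromatin immunoprecipitation and sequencing was done on whole uterus of female mice at 2 stages with 2 antibodies, and each of the 4 groups had 1 library. The adult groups were uteri of pseudopregnancy, the hormonal state after a sterile mating, with tissue of days 2.5 and 3.5 under one label for each antibody. The younger groups were uteri at postnatal day 12 (PD12), when the endometrial glands are forming. At each stage 1 library was made with a goat antibody to FOXA2, and 1 with a rabbit antibody to polymerase II phosphorylated on serine 2 of its repeat (POL2). No genotype, strain or treatment is given in the labels. With 1 library a group there is no replicate check and no p-value. In whole tissue, a longer list can come from more signal per cell or from more cells of the kind that carry it, and these cannot be told apart.

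PLZF is a sequence-specific regulator that recruits corepressors to chromatin, and it is known for its part in germline stem cells, innate-like T cells and limb patterning. Its gene is a well known target of steroid hormones: progestins and glucocorticoids raise its transcript in several cell types, human endometrial stromal cells among them. FOXA2 is a forkhead factor that in the uterus marks the glandular epithelium. Serine 2 phosphorylation marks polymerase that is elongating, so it is spread over the bodies of transcribed genes. These facts are background and were not measured here.

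The gene at the window is given as Zbtb16 on the mm9 build by the rule that set the window. The headers of the lists name no build, and 260 of their 35977 intervals lie beyond the last gene of the GRCm38 gene table used here for names, so positions of that table were not used. In that table the neighbours of Zbtb16 are Nnmt, which encodes nicotinamide N-methyltransferase, on the lower side and the non-coding gene Gm32335 on the upper side. Htr3a, for a serotonin receptor subunit, is the nearest named coding gene above it, and the predicted gene Gm32280 overlaps Zbtb16. The place of an interval relative to exons, introns and the start of Zbtb16 was not determined. Places are given below along the POL2 stretch, from its lower to its higher end.

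POL2 covered 175.2 kb of the window in the adult, against 0 kb at PD12. That was 79.6% of the window in the adult and 0% at PD12. The adult list had 12 intervals there and the PD12 list had none. All 12 adult intervals therefore lacked a PD12 counterpart, as did 45.6% of all 14818 adult POL2 intervals. Because the window was chosen for this contrast, nothing is read from that count. The adult intervals ran from 48451800 to 48646399, a stretch of 194.6 kb of which 90.03% was covered. The stretch began 11.8 kb above the lower edge of the window and ended 13.6 kb below its upper edge, so no adult interval was cut by an edge.

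**Figure D1:**
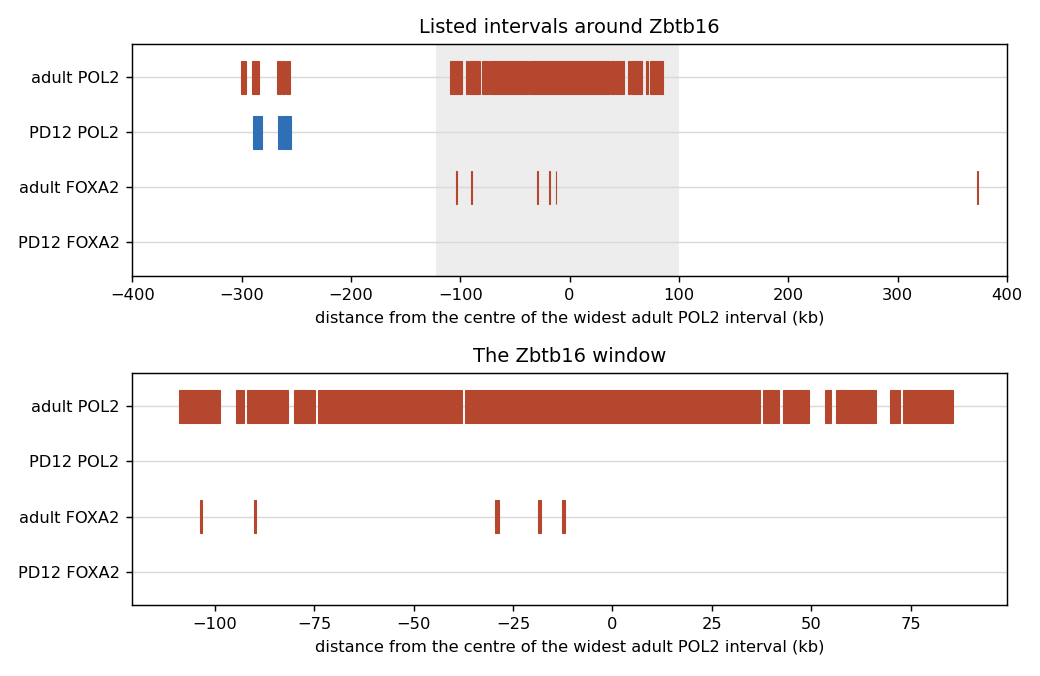
Intervals of the 4 lists around Zbtb16 (upper panel, 400 kb to each side, window in grey) and inside the window (lower panel). The horizontal axis is the distance in kb from the centre of the widest adult POL2 interval, and each bar is 1 listed interval, red for adult and blue for PD12. The 12 adult POL2 and 5 adult FOXA2 intervals have no PD12 interval beneath them, whereas POL2 intervals of both stages lie at the left of the upper panel.

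The polymerase was not listed evenly along the stretch. The widest interval, at 48523800 to 48597799, measured 74.0 kb and took up 42.2% of the adult POL2 cover of the window. It ranked 11 among 14818 adult POL2 intervals by width and was the widest of the 6758 with no PD12 overlap. The interval just below it, at 48486800 to 48522999, measured 36.2 kb and ranked 66. The pair held 110.2 kb, or 62.9% of the cover, and only 800 bp lay between them. The other 10 intervals were between 1.6 and 12.4 kb wide.

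In the order of the chromosome, the intervals below that pair measured 10.4, 1.8, 10.4 and 5.2 kb. Those above it measured 4.2, 6.6, 1.6, 10, 2.4 and 12.4 kb. The centre of the stretch was thus continuous and both ends were broken into pieces. Of the 12 widths, 8 lay above and 4 below the 4800 bp that is the median of the adult POL2 list, and their own median was 8300 bp.

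**Figure D2:**
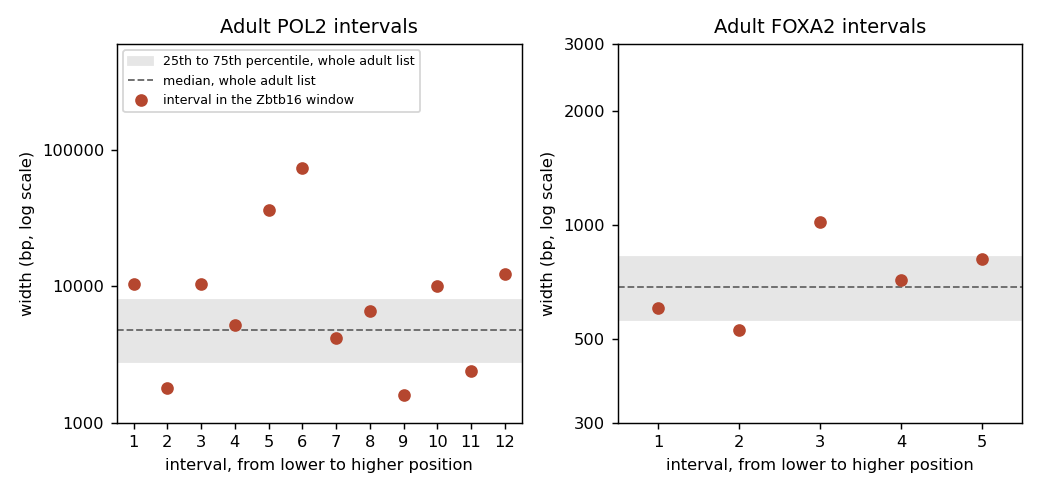
Width in bp (log scale) of each adult POL2 interval (left, 12 intervals) and adult FOXA2 interval (right, 5 intervals) of the Zbtb16 window, in the order of their positions, each point being 1 interval. The dashed line is the median and the grey band the interquartile range of the whole adult list of that antibody; POL2 intervals 5 and 6, of 36.2 and 74.0 kb, stand far above the band, and the FOXA2 intervals lie in it or close to it.

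The 11 gaps between the 12 intervals were short, from 800 to 4000 bp with a median of 1000 bp, and added up to 19.4 kb. Across the adult POL2 list the median gap was 19200 bp. No gap in that list was under 800 bp, and 5 of the 11 gaps here were exactly that, against 8.19% of all 14798 gaps. The number of 12 intervals therefore describes how one near-continuous stretch was cut up. Cut into 11 bins of 20 kb from the lower edge of the window, adult cover had a median of 92.0%. It reached 100% in 3 bins, exceeded 90% in 6, and was lowest, at 32.0%, in the bin at the upper edge. No bin held PD12 POL2.

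The PD12 POL2 list was not empty nearby. In the 200 kb below the window, POL2 covered 20.8 kb in 5 intervals in the adult and 18.6 kb in 3 intervals at PD12. There, 4 of the 5 adult intervals overlapped a PD12 interval, and the adult interval at 48260200 to 48264799 (4.6 kb) did not. The nearest POL2 below the adult stretch lay 146 kb away in the adult list and 145 kb away in the PD12 list. In the 200 kb above the window neither stage had any POL2, and the next interval upward lay 1666 kb from the stretch in the adult and 661 kb from it at PD12.

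FOXA2 was listed at 5 places in the window in the adult and at none at PD12. The adult intervals covered 3.67 kb in all, 1.67% of the window, against 0 kb at PD12. An absence at PD12 is what most adult FOXA2 intervals show: 94.4% of all 10373 adult intervals had no PD12 overlap, since the PD12 list held 814 intervals. The 5 of 5 here is thus close to the whole list. When the adult list was shortened by width to the 814 intervals of the PD12 list, the adult number in the window was 0, as at PD12. The stage difference in FOXA2 was then absent. That cut kept intervals of at least 1130 bp, and the widest here measured 1019 bp. Width is also not alike in the 2 lists, with a median of 685 bp in the adult and 318.5 bp at PD12. The cut therefore cannot decide whether FOXA2 differed by stage. Outside the stretch, the nearest adult FOXA2 intervals lay 446 kb below and 287 kb above it, and the nearest PD12 ones 1478 kb below and 1690 kb above it.

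The 5 FOXA2 intervals fell into a pair at the lower end of the stretch and a group of 3 at its middle. The pair was at 48457035 to 48457635 (601 bp) and 48470641 to 48471168 (528 bp). Their centres lay 5.54 and 19.1 kb from the lower end of the stretch and 13.6 kb apart.

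The group of 3 followed after 61.0 kb without a FOXA2 interval. It was at 48531359 to 48532377 (1019 bp), 48542012 to 48542725 (714 bp) and 48548005 to 48548816 (812 bp), all within 17.5 kb. Their centres lay 41.1%, 46.5% and 49.6% of the way along the stretch. The upper part of the stretch, from 96.6 kb above its lower end onward, held no FOXA2 interval over its remaining 98.0 kb.

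Each of the 5 FOXA2 intervals lay wholly inside an adult POL2 interval. Among all adult FOXA2 intervals, 19.4% overlapped adult POL2. With 5 intervals, the exact (Clopper-Pearson) 95% binomial interval of the share runs from 47.8% to 100%. It assumes independent intervals, but 3 of the 5 lay in the same 74.0 kb POL2 interval, within 17.5 kb. It therefore does not give the error of this share and is not compared with the 19.4%. The window was chosen for its POL2 cover, which was 79.6%, so most positions in it lie in POL2 and nothing is read from the 5 of 5. Relative to the length listed for POL2, FOXA2 stood at 2.85 intervals per 100 kb in the window and at 2.11 per 100 kb over the whole adult POL2 list. Both densities are a description, and no comparison is drawn from 5 intervals in a window chosen with these lists known.

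The middle group shared its host, the 74.0 kb POL2 interval, and its centres lay 8.07, 18.6 and 24.6 kb from the lower end of that host and thus in its lower part. The lowest FOXA2 interval lay near the middle of the first POL2 interval, 5.54 and 4.86 kb from its ends. The next lay in the third POL2 interval, 2.10 kb from its lower end. The 36.2 kb POL2 interval and the other 8 POL2 intervals held no FOXA2.

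FOXA2 widths were ordinary. The 5 ranged from 528 to 1019 bp with a median of 714 bp, and the whole adult list had a median of 685 bp. The interval of 1019 bp was as wide as or wider than 89.0% of the list, and the interval of 528 bp than 18.9%. Adult FOXA2 intervals inside POL2 had a median of 880 bp, above the 657 bp of those outside it, and 1 of the 5 exceeded 880 bp. The lists carry no height or score, so width is the one measure of size at hand.

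Of the 5 FOXA2 intervals, 3 had at least 2 others within 20 kb, centre to centre. In the whole adult list 8.39% of intervals had as many, and among those inside adult POL2 10.1% did. These shares are a description, since the window was chosen with the lists known. A wide POL2 interval has more room for FOXA2: the host here measured 74.0 kb, and the median of the adult POL2 list was 4800 bp. Among the 30 adult POL2 intervals of 50 kb or more, 3 held at least 3 FOXA2 intervals. Over adult POL2 intervals of all widths, 17 of 14818 did. Of these, 3 had no PD12 POL2 overlap: the one at Zbtb16, one of 31.2 kb at chromosome 5, 107687600 to 107718799, and one of 6.4 kb at chromosome 4, 94223000 to 94229399.

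The window was also set beside 4713 windows of the same length (220 kb), laid end to end along the chromosomes, that held POL2 of either stage. Adult POL2 without PD12 POL2 was seen in 19.0% of them, and adult FOXA2 without PD12 FOXA2 in 59.2%, so both patterns are common by themselves. The extent of the cover at Zbtb16 is what chose the window. The median adult cover was 1.55% in windows with adult POL2 alone, and the highest elsewhere was 74.3%, at chromosome 19, 17600081 to 17820081. In all windows the median cover was 5.64% in the adult and 3.82% at PD12. Leaving aside the 2 windows that overlap the one at Zbtb16, 2 others had at least its adult cover. They were at chromosome 1, 170060774 to 170280774, with 94.0% covered in the adult and 85.2% at PD12, and at chromosome 7, 80520367 to 80740367, with 81.3% and 77.1%. None of these fixed windows had as large an adult excess, which is the measure the window was chosen by. Fixed windows can split a covered region, whereas the Zbtb16 window lies around its whole stretch. On chromosome 19, the window named above and the next, 17820082 to 18040082, had 74.3% and 35.5% adult cover and no PD12 POL2. A window of the same length placed from 17656000 would take in a whole stretch with 108.4 kb of adult POL2 cover. It would also take in most of the next stretch, of 130.6 kb with 108.6 kb covered. Its adult cover would exceed the 175.2 kb at Zbtb16, also with no PD12 POL2. The rank therefore holds for the fixed windows only.

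**Figure D3:**
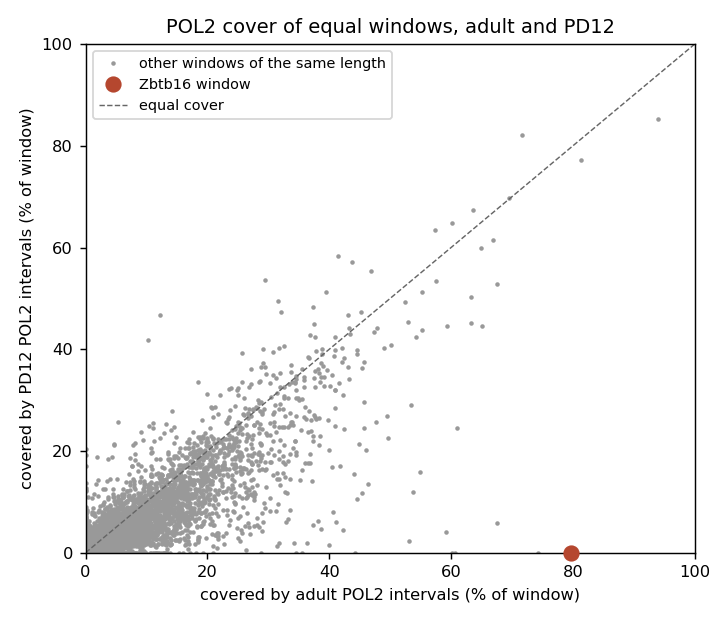
POL2 cover of equal windows of the genome, as a percentage of the window in the adult (horizontal) and at PD12 (vertical). The other windows lie at fixed positions, so a covered region can be split between neighbouring windows, as on chromosome 19. Grey points are the windows away from Zbtb16, the dashed line is equal cover and the red point is the Zbtb16 window, at 79.6% in the adult and 0% at PD12, on the lower edge and to the right of all other points there.

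At least 5 adult FOXA2 intervals were found in 247 of the 4713 windows (5.24%), the median being 1 and the highest 11. Among 31 windows elsewhere with 50% or more adult POL2 cover, 5 (16.1%) had at least 5 FOXA2 intervals. Their median was 2 and their highest 6, and 3 had none. The FOXA2 number at Zbtb16 was thus in the upper part of the range for POL2-rich windows and not beyond it.

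The 5 fixed windows most like it were taken by the summed differences in the 2 POL2 covers and the 2 FOXA2 numbers. Their sums ran from 10.3 to 25.7. Cover counts in per cent and adult FOXA2 numbers reached at most 11, so POL2 cover could weigh most in this sum. The first was the chromosome 19 window at 17600081 to 17820081, which held no FOXA2 of either stage. The next were at chromosome 5, 107580490 to 107800490, with 60.6% covered by adult POL2, 0% by PD12 POL2 and 4 adult FOXA2 intervals, and at chromosome 13, 24640113 to 24860113, with 60.1%, 0% and 4. At chromosome 6, 31020142 to 31240142, 67.6% was covered in the adult and 5.82% at PD12, with 1 adult FOXA2 interval. At chromosome 18, 64680295 to 64900295, 59.1% was covered in the adult and 4.18% at PD12, with 6 adult FOXA2 intervals. None of the 5 held PD12 FOXA2. The genes there were not determined.

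After adult POL2 intervals had been joined where the gap was 5 kb or less, the 12 at Zbtb16 became 1 stretch. Of 10620 such adult stretches (median 5.80 kb) it was the second longest, after 290.6 kb at chromosome 1, 170074000 to 170364599, where PD12 POL2 covered 91.8% as much as adult POL2. At that limit it was the longest of the 4631 stretches that held no PD12 POL2. The next in length were 2 neighbouring stretches on chromosome 19, at 17781800 to 17912399 (130.6 kb) and 17656000 to 17771199 (115.2 kb), which held no FOXA2 interval of either stage. The gap between these 2 exceeded 5 kb. Joined across it, they would run from 17656000 to 17912399, which is longer than the stretch at Zbtb16 and also without PD12 POL2. Ranks under other limits were not computed. The fourth, at chromosome 13, 24718600 to 24832799 (114.2 kb), held 2 adult FOXA2 intervals. Those from the fifth to the tenth held 0 or 1 each, so none of the other 9 held as many as the 5 at Zbtb16. Their cover was 41.6 to 108.6 kb, against 175.2 kb at Zbtb16, and the longer stretch offers more room for FOXA2. Stretches that overlap PD12 POL2 anywhere are outside this ranking, and so is a region of chromosome 5. Its adult POL2 intervals at 107610400 to 107684199 (73.8 kb) and 107687600 to 107718799 (31.2 kb) lay less than 5 kb apart. Neither overlapped PD12 POL2, and they held 1 and 3 adult FOXA2 intervals. The stretch that joins them is not among those without PD12 POL2.

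**Figure D4:**
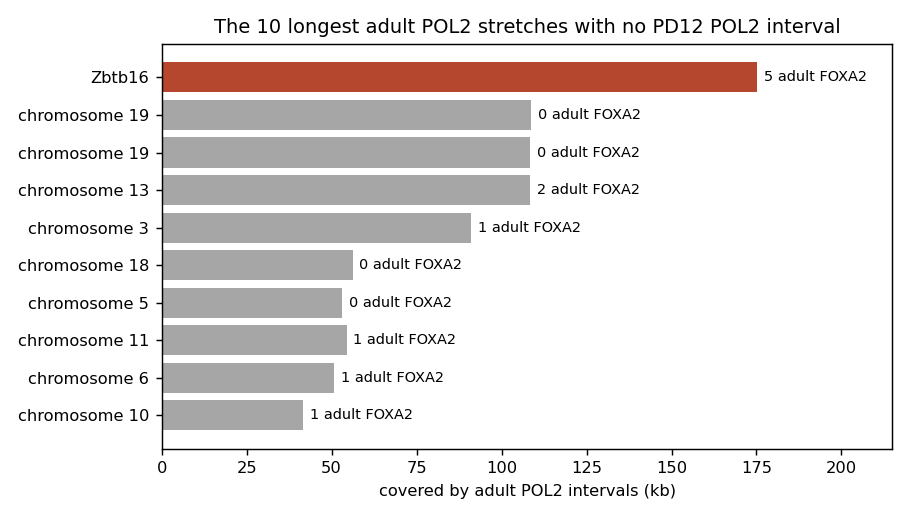
The 10 longest stretches of adult POL2, joined where gaps were 5 kb or less, that hold no PD12 POL2 interval, ordered by length from the top. Bars start at 0 and give the kb covered by adult POL2, and the text beside each gives the number of adult FOXA2 intervals in it, 5 at Zbtb16 and 0 to 2 in the others. Stretches that overlap PD12 POL2 anywhere are left out, among them one on chromosome 5.

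Very wide adult POL2 intervals were mostly listed at PD12 as well. Of the 30 adult intervals of 50 kb or more, PD12 POL2 covered a median of 92.2%, and 3 had no PD12 cover. These were the 74.0 kb interval at Zbtb16, one of 73.8 kb at chromosome 5, 107610400 to 107684199, and one of 57.4 kb at chromosome 15, 66938400 to 66995799. The least covered of the others had 11.5%. Adult FOXA2 intervals numbered 3 in the one at Zbtb16 and 1 in each of the other 2 without PD12 cover. Over all 30 the median was 1 and 12 held none, and 3 was the highest number, reached in 3 of them.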

How the data were processed

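Whole-uterus ChIP-seq with antibodies to FOXA2 and POL2 gave 4 libraries, 1 per antibody and stage. BWA is named in the submitters' processing notes. Not given in the sources used here are the caller and threshold behind the intervals, whether input DNA entered the calls, the build, and how the 2 days of pseudopregnancy were combined. According to the headers, the deposited lists give the chromosome, start and end of each interval and no other measurement, so neither the depth of a library nor the strength of an interval is known. More depth or a looser threshold gives a longer list.

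Positions were taken as in the lists, both ends included. Cover is the number of bases under at least 1 interval of a list, and overlap needed 1 bp. Windows of the genome ran from position 1 of each chromosome to its last interval. Calculations used Python 3.11.15, numpy 2.4.6, scipy 1.17.1 and matplotlib 3.10.9, and the overlap and cover routines were checked on simulated lists. Names came from the RefSeq gene table of GRCm38.p6, and no sequence of Zbtb16 was used. No test between stages was made. The gene, the window and the comparisons were chosen with earlier results of these data known. Regions named are those in the window, the 5 equal windows most like it, its surroundings and the leading entries of each ranking. Comparisons with joined stretches, wide intervals and POL2-rich windows, and the FOXA2 density and clustering, were added after the values were seen.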

Additional observations from a re-analysis of the deposited data

How the results depend on the processing

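Over 10 values and 43 alternative settings, 33 settings left a value as reported or a count within 1.5 times of it, and 10 moved it. All 19 alternatives for PD12 gave 0, for POL2 and FOXA2 alike, and none of them could give another value. The nearest PD12 intervals lay 134 kb (POL2) and 1466 kb (FOXA2) from the window, beyond the widening, and the other settings add no interval. The alternatives for the place of FOXA2 were likewise bound to give 100%, since each interval lay wholly inside POL2. The 33 settings are therefore no measure of stability. Adult POL2 cover, 175.2 kb, was 160.6 kb with the window narrowed by 20 kb on each side, 165.2 kb in the 50% widest intervals, and 169.4 kb with the adult list shortened to the length of the PD12 list by width. The 12 adult POL2 intervals became 6 when joined across gaps of up to 1 kb and 1 across gaps of up to 5 kb. The 5 adult FOXA2 intervals, covering 3.67 kb, became 3, covering 2.54 kb, in the 50% widest intervals, and 0, covering 0 kb, in the 814 widest adult intervals, the length of the PD12 list, all of at least 1130 bp. With the narrowed window FOXA2 covered 3.07 kb. Widening the window by 50 kb on each side changed none of these values.

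No paired analysis was possible because a single library stands for each group. The planned list of progesterone- and glucocorticoid-responsive genes was not run, since it needs an annotation of the files' build. Unknown depth limits every comparison of stages: an interval missing from the PD12 lists was not detected under their threshold, which does not show that POL2 or FOXA2 was absent. The mix of cells in the tissue at each stage is unknown too.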
